A study of Bos taurus with 10 samples.

Results

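The ancient clade of the pregnancy-associated glycoproteins of cattle was taken here as 6 genes, *PAG2*, *PAG8*, *PAG10*, *PAG11*, *PAG12* and *PAG13*, taken by their symbols. Of these, 5 had a row among the 20112 genes of the expression table, and *PAG13* was not analysed here. The 13 other numbered *PAG* genes of the table, *PAG3*, *PAG4*, *PAG5*, *PAG6*, *PAG7*, *PAG9* and *PAG15* to *PAG21*, served as the comparison. *PAG1* was kept apart, because in the RefSeq gene table for ARS-UCD2.0 this symbol belongs to a gene (Gene ID 614460) outside the *PAG* cluster, whereas the locus with *PAG1* as a synonym, LOC281964, lies inside it. Membership in the ancient clade rests on the symbols alone and was not checked against sequence.

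Pregnancy-associated glycoproteins are secreted proteins of the trophoblast of ruminants and their relatives. They belong to the aspartic proteinase family, with pepsinogen among their relatives, and many of them are thought to have lost catalytic activity. Ancient members are known from trophoblast cells in general, mononucleate cells included, whereas most of the others belong to a younger clade known from the binucleate giant cells of the placenta, whose products reach the blood of the mother and serve in pregnancy tests.

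RNA-seq was performed on single bovine early blastocysts, labelled 7.0 days after fertilization, to learn what loss of *SOX2*, a transcription factor of pluripotent cells, does to the transcriptome. The 5 wildtype (WT) embryos were injected as zygotes with mRNA of the cytosine base editor BE3 alone, and the 5 *SOX2* KO embryos with BE3 mRNA and sgRNAs against *SOX2*, so that both groups carried the editor. The embryos were produced in vitro, their zona pellucida was removed, and the edited embryos are a first generation in which single embryos can be mosaic. *SOX2* transcript itself was at 56.5 to 93.4 in WT against 26.4 to 82.1 in *SOX2* KO embryos and thus overlapped, which does not check a stop codon made by editing. Part of the cDNA of each sequenced blastocyst served the authors for genotyping. They also reported strongly reduced SOX2 protein in edited blastocysts that were stained.

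All values are normalized read counts, the reads of a gene divided by the size factor of the embryo, and 1 read was worth 0.590 to 1.48 in WT against 0.821 to 1.32 in *SOX2* KO embryos. Embryos of each group are numbered 1 to 5 in the order of the table, and values are given in that order. Libraries held 2223670 to 5134855 reads on genes in WT against 2578284 to 4337342 in *SOX2* KO embryos. Between 15919 and 18092 genes had a read in WT against 17987 to 19813 in *SOX2* KO embryos, and the ribosomal *RN18S1* took 26.4% to 37.0% and 32.5% to 45.0% of the reads. Genes were called at a limma adjusted p of at most 0.05 with a change of at least 2-fold. By this rule 8.93% of the 20056 genes tested passed as higher after *SOX2* KO and 1.16% as lower, with a median log2 fold change of 0.25 over all of them. Among the 8722 genes with a mean under 10, the level of all *PAG* genes but *PAG1* and *PAG2*, the share called higher was 14.1% and the median 0.93. *XIST* was low in WT embryo 2 (11.9) and *SOX2* KO embryo 4 (33.7).

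*PAG2* (Gene ID 337897) carried most of the ancient signal and was higher in every *SOX2* KO embryo than in any WT embryo. The WT embryos held 66.4, 53.4, 91.5, 51.3 and 184 normalized read counts of *PAG2*, from 87, 36, 92, 66 and 311 reads. The *SOX2* KO embryos held 276, 416, 419, 301 and 376, from 248, 315, 360, 366 and 326 reads. The groups did not overlap, and WT embryo 5 was well above the other 4 WT embryos. Over all genes tested, 6.41% had every *SOX2* KO embryo above every WT embryo. The mean was 89.2 ± 55.1 (SD, n = 5) in WT against 357 ± 65.8 (SD, n = 5) in *SOX2* KO embryos. On the scale of log2(normalized read count + 1), *PAG2* rose by 2.14 (SE 0.26, limma adjusted p = 5.44e-05), which is 1.89 above the median of all genes tested. Of all well-covered genes, those with a mean of 50 or more, 2.68% were called higher. Leaving out each embryo in turn gave 1.99 to 2.45, with the highest value without WT embryo 5, and *PAG2* was called in 10 of 10 such fits and under 11 of 11 other settings.

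**Figure D1:**
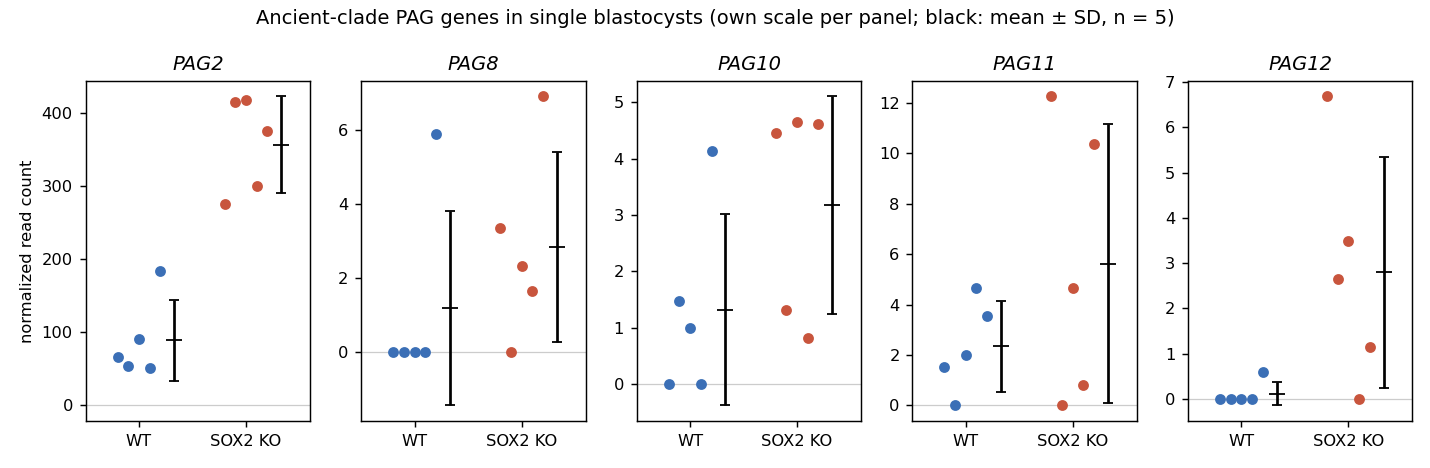
Normalized read count of each ancient *PAG* gene in single blastocysts, 5 WT and 5 *SOX2* KO embryos, with a vertical axis for each gene; each point is 1 embryo, and black bars show the mean and SD. *PAG2* separates the groups (51.3 to 184 against 276 to 419), whereas the other 4 genes overlap at levels between 0 and 12.2.

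The other 4 ancient genes were at the edge of detection in both groups and none was called. *PAG12* (Gene ID 337906), which lies next to *PAG2* in the gene order, had 0, 0, 0, 0 and 0.590 in WT embryos and 6.68, 2.64, 3.49, 0 and 1.15 in *SOX2* KO embryos. *SOX2* KO embryos 1, 2, 3 and 5 were above all WT embryos, and *SOX2* KO embryo 4 had no read. Its 1 read in WT against 12 reads in *SOX2* KO embryos gives a ratio per size factor of 15.6, with an exact 95% interval of 2.30 to 666 that covers counting error only. Every gene of the table had at least 11 reads over the 10 embryos, so with 1 WT read the rest had to lie in *SOX2* KO embryos. The interval does not allow for that selection. The log2 fold change of *PAG12* was 1.48 (SE 0.56, limma adjusted p = 0.0785). It was called in 1 of 9 fits with an embryo left out, the one without *SOX2* KO embryo 4 (adjusted p = 0.0168). Without *SOX2* KO embryo 1 its mean fell under the minimum for testing.

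*PAG8* (Gene ID 337902) had 0, 0, 0, 0 and 5.90 in WT embryos and 3.34, 0, 2.33, 1.64 and 6.92 in *SOX2* KO embryos. All 10 of its WT reads came from WT embryo 5, and the groups overlapped. *PAG10* (Gene ID 337904) had 0, 1.48, 0.994, 0 and 4.13 in WT against 4.45, 1.32, 4.65, 0.821 and 4.61 in *SOX2* KO embryos, again with WT embryo 5 among the high values. *PAG11* (Gene ID 337907) had 1.53, 0, 1.99, 4.66 and 3.54 in WT against 12.2, 0, 4.65, 0.821 and 10.4 in *SOX2* KO embryos. In *PAG11* only *SOX2* KO embryos 1 and 5 exceeded the highest WT embryo, and *SOX2* KO embryo 2 had no read. Log2 fold changes were 1.09 (SE 0.66) for *PAG8*, 0.97 (SE 0.59) for *PAG10* and 0.60 (SE 0.71) for *PAG11*, with limma adjusted p of 0.254, 0.260 and 0.584. Of these 4 genes, 1 reached an unadjusted p under 0.05 by limma, and DESeq2 and edgeR on the recovered reads, which called 9.13% and 8.41% of the genes higher, also called 0 of the 4, with 1 such gene each.

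With *PAG2* included, 1 of the 5 measured ancient genes was thus called higher, beside 8.93% of all genes. The median log2 fold change over the 5 genes was 1.09, close to the 0.93 of all genes with a mean under 10. Few reads lie behind these values: the 4 minor genes give 20 values per group, of which 11 were 0 in WT against 3 in *SOX2* KO embryos, while 4 and 8 were above the floor of 3 reads. *SOX2* KO embryos 1 and 5 held 44 of the 64 reads of these genes in their group. Embryos 1 and 5 also had the most genes with a read over the whole table, 19813 and 19561 against 17987 to 19022 in the other *SOX2* KO embryos.

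**Figure D2:**
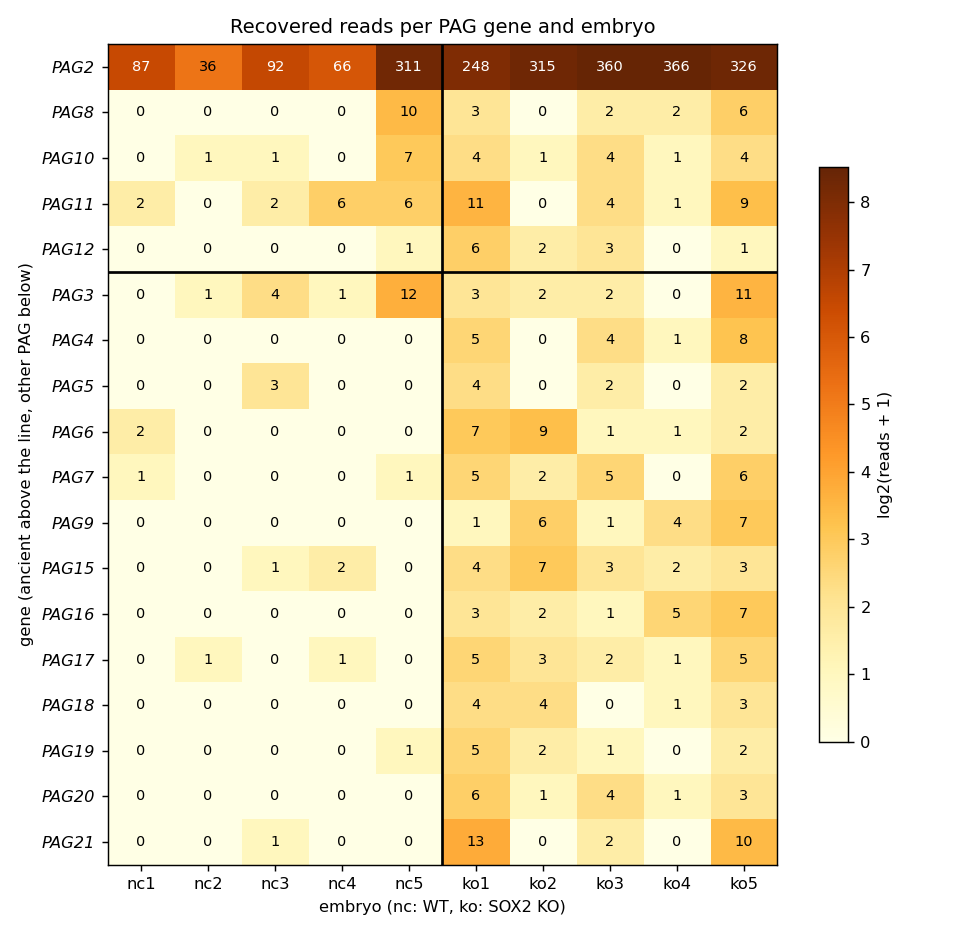
Reads of each *PAG* gene in each of the 10 embryos, ancient genes above the line and the other *PAG* genes below it, with WT embryos as nc1 to nc5 and *SOX2* KO embryos as ko1 to ko5, shading on a log2 scale and the number of reads in each cell. Most cells of the WT embryos below *PAG2* are at 0, and *SOX2* KO embryos 1 and 5 hold reads of all 18 genes.

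Summing the ancient genes, which leaves no room for reads exchanged within the clade, gave 67.9, 54.9, 94.5, 55.9 and 198 in WT embryos. The sums in *SOX2* KO embryos were 303, 420, 434, 304 and 399, so all 5 exceeded the highest WT embryo. Means were 94.2 ± 60.0 (SD, n = 5) and 372 ± 63.7 (SD, n = 5), a ratio of 3.95. WT embryo 5 alone held 335 of the 628 ancient reads of its group. Without *PAG2* the ancient sum was 1.53, 1.48, 2.98, 4.66 and 14.2 in WT against 26.7, 3.96, 15.1, 3.29 and 23.1 in *SOX2* KO embryos, and here 3 *SOX2* KO embryos exceeded the highest WT embryo. *PAG2* made up 91.7% to 97.8% of the ancient reads in WT against 91.2% to 99.1% in *SOX2* KO embryos. These are shares of reads, since no transcript lengths were at hand to set the levels of the genes against each other.

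The 13 other *PAG* genes took fewer reads than the ancient genes in all 10 embryos. Their sum was 2.29, 2.97, 8.95, 3.11 and 8.26 in WT embryos and 72.4, 50.2, 32.6, 13.1 and 79.6 in *SOX2* KO embryos, with no overlap between the groups. The means of 5.12 ± 3.21 (SD, n = 5) and 49.6 ± 27.6 (SD, n = 5) give a ratio of 9.69, beside 3.95 for the ancient sum. The difference between the ratios was not tested. Of the 65 values per group behind the other sum, 51 were 0 in WT against 9 in *SOX2* KO embryos, while 2 and 26 were above 3 reads. *PAG3* alone held 18 of the 32 WT reads. No WT read was found for 5 of the 13 genes, which could enter the table only through *SOX2* KO reads. The ratio of 9.69 carries that selection. The ancient genes accounted for 91.3% to 96.7% of the *PAG* reads of WT embryos and for 80.7% to 95.9% of those of *SOX2* KO embryos. The share was lowest in *SOX2* KO embryo 1 (80.7%, 95% Wilson interval 76.2% to 84.6%) and within the WT range in *SOX2* KO embryos 3 and 4. Its means were 94.7% ± 2.07 and 88.5% ± 6.37 (SD, n = 5), but under quantile normalization the difference of -6.28 percentage points became 6.93.

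**Figure D3:**
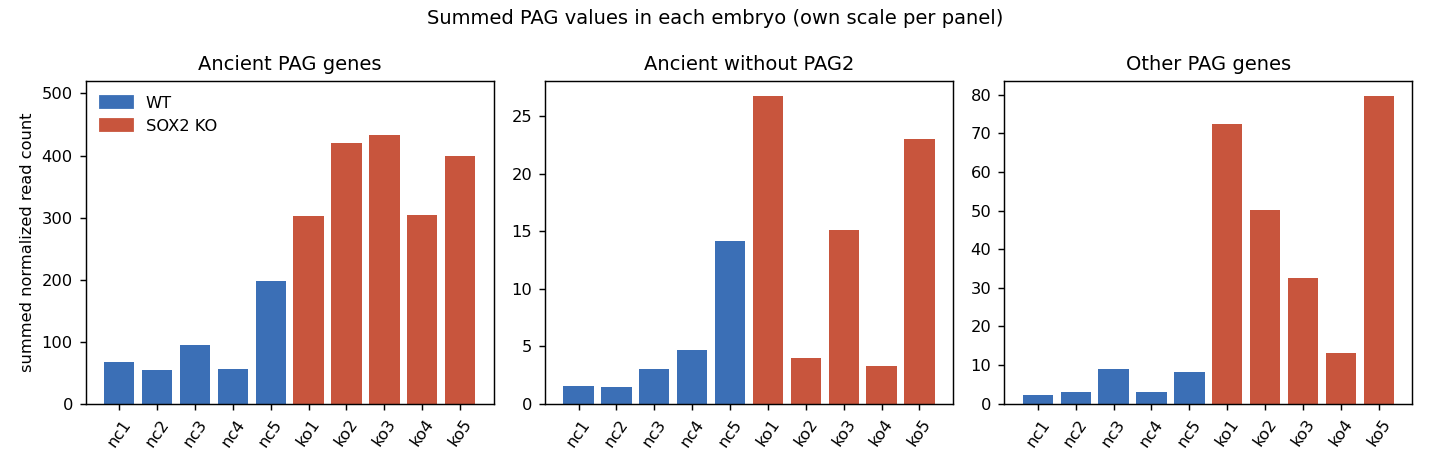
Summed normalized read counts of the ancient *PAG* genes, of the ancient genes without *PAG2* and of the other *PAG* genes, with a vertical axis for each panel; each bar is 1 embryo, WT (nc1 to nc5) in blue and *SOX2* KO (ko1 to ko5) in red. The first and the last sum separate the groups, whereas without *PAG2* the ancient sums of *SOX2* KO embryos 2 and 4 (3.96 and 3.29) fall in the WT range.

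Counted without any size factor, reads of the 18 *PAG* genes amounted to 16.7 to 68.0 per 1000000 reads in WT against 89.0 to 138 in *SOX2* KO embryos. WT embryos had reads of 4, 4, 7, 5 and 8 of the 18 genes and *SOX2* KO embryos of 18, 13, 17, 12 and 18. After every library was thinned to the 2223670 reads of the smallest, 3.04 to 6.24 genes in WT against 8.03 to 17.7 genes in *SOX2* KO embryos would be expected to keep a read. The groups stayed apart at an equal total of reads on genes, of which *RN18S1* still took its share. Genes with a read were more numerous in *SOX2* KO embryos over the whole table as well, and the part of this in the *PAG* counts was not tested.

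Of the 13 other *PAG* genes, 7 were called higher and 0 lower, against 14.1% of the genes with a mean under 10 called higher and 0.195% called lower. All 13 log2 fold changes were above 0, as were those of 7299 of the 8722 genes with a mean under 10. Of the 13, 11 had an unadjusted limma p under 0.05, none of them lower. The share of low genes at that unadjusted p was not counted. *PAG9*, *PAG15*, *PAG16* and *PAG20* were higher in all *SOX2* KO embryos than in all WT embryos, which held for 8.85% of the genes with a mean under 10. *PAG16* had no read in WT embryos and 3.34, 2.64, 1.16, 4.11 and 8.07 in *SOX2* KO embryos, at least 7.79-fold higher against a floor of 3 reads over the WT group, with 5.71 as the lower end of the exact 95% interval of the ratio (limma adjusted p = 0.0114). *PAG9* had no read in WT embryos and 1.11, 7.92, 1.16, 3.29 and 8.07 in *SOX2* KO embryos, at least 8.22-fold higher against the same floor, with a lower end of 6.06 (limma adjusted p = 0.0165). Both intervals pool the reads of each group and cover counting error only, not the spread between embryos. *PAG4*, *PAG18* and *PAG20* also lacked any WT read, which makes 5 of 13 beside 3.89% of the genes with a mean under 10. However, every gene of the table had at least 11 reads over the 10 embryos, so a gene without WT reads had to have them in the *SOX2* KO embryos. The fold bounds and p-values of these 5 genes carry that selection. In part the same holds for genes with few WT reads, such as the called *PAG6*, *PAG15* and *PAG17* with 2, 3 and 2.

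*PAG3* changed least of the 13, with 18 reads in each group and a log2 fold change of 0.40 (limma adjusted p = 0.717). Its highest value, 12.7, was in *SOX2* KO embryo 5, and WT embryo 5 held 7.08. *PAG5* came next, with 3 reads in WT against 8 in *SOX2* KO embryos and a log2 fold change of 0.78 (limma adjusted p = 0.379). The 7 calls rest on few reads and on single embryos. There were 11 calls without *SOX2* KO embryo 4 and 5 without *SOX2* KO embryo 2. There were 4 without WT embryo 1, 3 or 4 or *SOX2* KO embryo 3, and 3 without WT embryo 2 or 5. Without *SOX2* KO embryo 1 there were 2, and 1 without *SOX2* KO embryo 5. Over all genes tested, 1792 were called higher with all embryos and 3050 without *SOX2* KO embryo 4. That number was 850 without *SOX2* KO embryo 1 and 754 without *SOX2* KO embryo 5. It rose to 2035 without WT embryo 3 and 2024 without *SOX2* KO embryo 2, where the *PAG* calls fell. None of the 13 genes was called with a pseudocount of 5, under quantile normalization or with the *RN18S1* share as a covariate. There 11, 4 and 6 of them were higher at an unadjusted p under 0.05. Over all genes tested, 1002, 640 and 137 were called higher there, and those at an unadjusted p under 0.05 were not counted. DESeq2 called 6 of the 13 genes and edgeR 7.

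**Figure D4:**
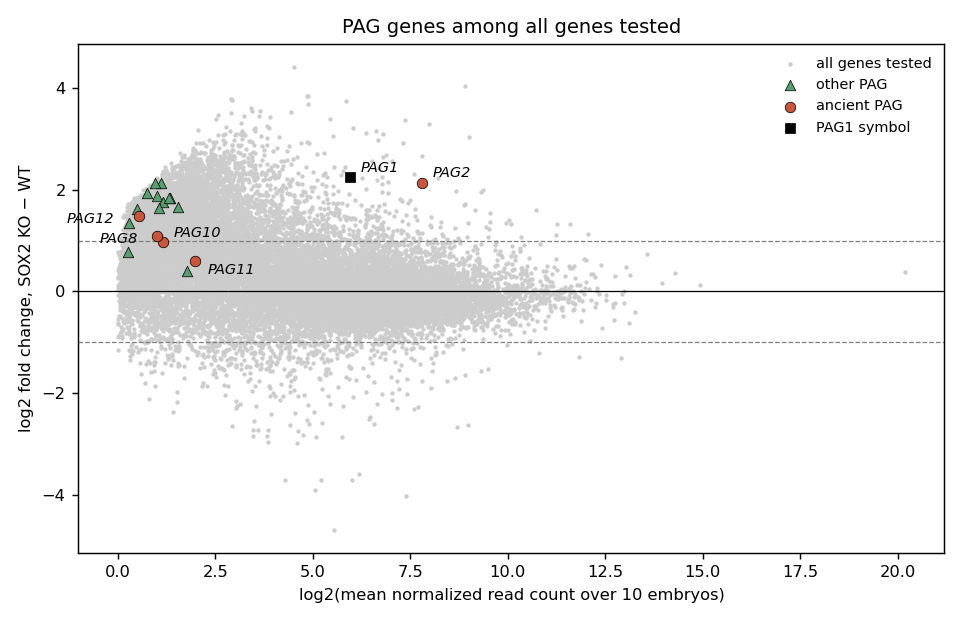
Log2 fold change (*SOX2* KO minus WT) of every gene tested against log2 of its mean normalized read count over the 10 embryos; ancient *PAG* genes are circles, other *PAG* genes triangles and *PAG1* a square, and dashed lines mark a 2-fold change. *PAG2* and *PAG1* stand at levels where few genes rise this far, and the other *PAG* genes stand among low genes, whose fold changes are shifted upward as a whole.

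*PAG1* took the second most reads among the *PAG* genes. WT embryos had 17.6, 5.93, 24.9, 24.1 and 39.5 and *SOX2* KO embryos 96.9, 71.3, 87.2, 177 and 71.5. The groups did not overlap, and *SOX2* KO embryo 4, which had the smallest sum of the other *PAG* genes in its group, had the most *PAG1*. *PAG1* rose by 2.24 on the log2 scale (SE 0.37, limma adjusted p = 0.000858), beside 2.14 for *PAG2*, and which of the loci that bear this name it counts was not determined.

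In the RefSeq gene order the numbered *PAG* genes other than *PAG1* form a single cluster of 62 entries, 31 of them protein coding and 28 pseudogenes. *PAG10*, *PAG2* and *PAG12* are neighbours at one end, *PAG8* closes the other end, with the pepsinogen gene *PGA5* as the next protein coding gene, and *PAG11* lies between. Of the 43 entries without a *PAG* symbol 9 had a row, and their sum was 0 to 6.49 in WT against 9.04 to 50.7 in *SOX2* KO embryos. Among these 9 genes, 4 were called higher, LOC519862, LOC504812, MGC157408 and LOC614287, which are named here after their values were seen, beside 14.1% of all genes with a mean under 10. Reads of near-identical cluster members could be exchanged between their rows, so single low genes of the cluster are less certain than the sums.

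**Figure D5:**
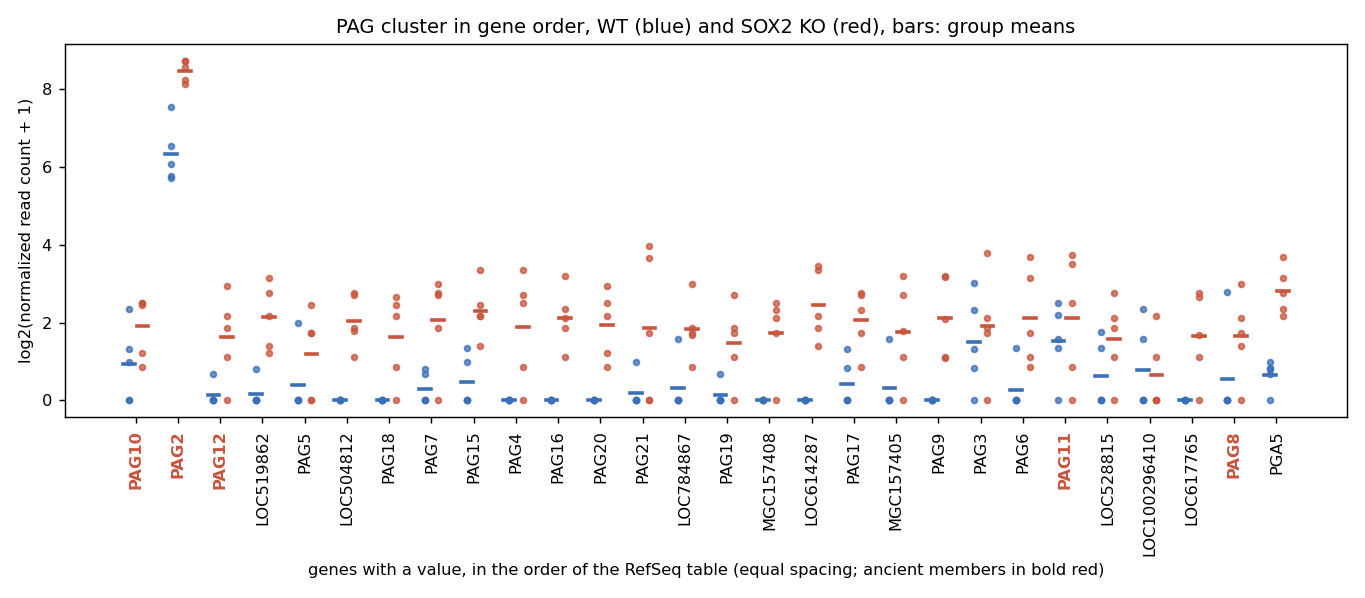
Log2(normalized read count + 1) of every measured gene of the *PAG* cluster and of *PGA5*, in RefSeq gene order with equal spacing; points are embryos, blue for WT and red for *SOX2* KO, and bars are group means. *PAG2* has far more reads than its neighbours *PAG10* and *PAG12*, and LOC100296410 is the 1 gene whose *SOX2* KO mean is not above its WT mean.

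Values are given for 3 aspartic proteinase genes outside the *PAG* family, of which *PGA5* and *PGC* were called higher and *CTSD* was not. *PGA5*, the pepsinogen gene next to the cluster, had 0.763, 0, 0.994, 0.777 and 0.590 in WT against 7.79, 11.9, 3.49, 4.11 and 5.77 in *SOX2* KO embryos. Its groups did not overlap (log2 fold change 2.16, limma adjusted p = 0.0114). *PGC*, the gene of progastricsin, had no WT read and averaged 2.70 in *SOX2* KO embryos (limma adjusted p = 0.0368). With at least 11 reads required of every gene, those of *PGC* had to lie in the *SOX2* KO embryos. *CTSD*, the lysosomal cathepsin D, averaged 949 and 1589 with a log2 fold change of 0.80 (limma adjusted p = 0.0236), short of 2-fold. Both called genes rest on few reads, and with the *RN18S1* share as a covariate or under quantile normalization neither was called, with an adjusted p of 0.146 and 0.153 for *PGA5* and of 0.384 and 0.288 for *PGC*. DESeq2 did not call *PGC* either (adjusted p = 0.0537), nor did limma without any 1 of the WT embryos or without *SOX2* KO embryo 1 (adjusted p of 0.0508 to 0.0879).

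Among 15 regulators of trophoblast genes, 2 were higher, 1 was lower and 12 did not pass, beside 8.93% and 1.16% of all genes tested. *DLX3*, a homeobox gene of the trophoblast, had 42.7, 19.3, 83.5, 75.4 and 42.5 in WT against 148, 141, 170, 91.2 and 197 in *SOX2* KO embryos. All *SOX2* KO embryos were above all WT embryos (log2 fold change 1.61, limma adjusted p = 0.00283), although with the *RN18S1* share as a covariate the adjusted p was 0.172. *ASCL2*, a trophoblast basic helix-loop-helix factor, averaged 0.507 and 6.82 (limma adjusted p = 0.0214), with *SOX2* KO embryo 4 (1.64) below WT embryo 5 (1.77). Its call was lost without WT embryo 2 or 4 or *SOX2* KO embryo 5 (adjusted p of 0.0520, 0.0535 and 0.0711), under quantile normalization (0.138), with the *RN18S1* share as a covariate (0.323) and, on fold size, with a pseudocount of 5. *GCM1*, a transcription factor of fusing trophoblast cells, moved the other way, with 38.9, 38.6, 32.8, 45.8 and 28.9 in WT against 4.45, 2.64, 3.49, 0 and 1.15 in *SOX2* KO embryos. *GCM1* fell by 3.71 on the log2 scale (SE 0.48, limma adjusted p = 8.31e-05) without overlap, a separation that 2.76% of all genes had in this direction, and in 10 of 10 fits with an embryo left out. *ETS2*, a factor known for its action on trophoblast genes, averaged 30.3 and 31.9 and did not pass (log2 fold change 0.01, limma adjusted p = 0.989); the sign of its change flipped between settings.

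Of 11 other secretory genes of the trophoblast, 1 was called higher and 0 lower, beside 8.93% and 1.16% of all genes tested. The count was 5 without *SOX2* KO embryo 4, 2 without WT embryo 3, 3 by edgeR and 0 with the *RN18S1* share as a covariate, where 2 were higher at an unadjusted p under 0.05. The called gene was *TKDP1*, a trophoblast Kunitz domain protein, with 2.29, 0, 12.9, 4.66 and 13.0 in WT against 134, 72.6, 130, 4.93 and 204 in *SOX2* KO embryos. *SOX2* KO embryo 4 was in the range of the WT embryos, as it had been lowest in the sum of the other *PAG* genes (log2 fold change 3.75, limma adjusted p = 0.00527, and 0.238 with the *RN18S1* share as a covariate). Of 5 binucleate cell markers measured, 2 were called higher and 1 lower. The steroid dehydrogenase gene *HSD3B1* was higher and *GCM1* lower, and the other call was *PAG1*, whose locus is not settled. *CYP11A1* did not pass, with 14.8 to 83.9 in WT against 228 to 402 in *SOX2* KO embryos 1, 2, 3 and 5 but 1.64 in *SOX2* KO embryo 4. *BERV-K1* did not pass either, at 0 to 3.82 and 0 to 3.96. The placental lactogen gene *CSH2* and *PRP1* were not analysed here.

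In RNA of whole embryos, more trophoblast cells and more RNA per cell cannot be told apart. By staining of later blastocysts, the authors reported no obvious change in trophectoderm cell number and fewer inner cells after *SOX2* KO. They also reported fewer cells per *SOX2* KO blastocyst, but a similar total cell number in the sequenced embryos. The summed level of 14 trophectoderm markers was 28324 to 41453 in WT against 40687 to 56426 in *SOX2* KO embryos. Most of that sum was *KRT8* (15026 to 22926 against 18211 to 25760) and *KRT18* (6996 to 10868 against 12397 to 18214). Of the 14 markers, *KRT19*, *ELF3* and *SLC34A2* were higher and 11 did not pass, beside 8.93% of all genes tested called higher. Epiblast markers summed to 2887 to 3443 in WT against 1298 to 1674 in *SOX2* KO embryos, with 0 of 11 higher and 6 lower. Hypoblast markers summed to 9414 to 16746 and 5278 to 8002, with 1 of 11 higher and 4 lower. Most of the hypoblast sum was *FN1*, with 7708 to 14623 in WT against 3143 to 5856 in *SOX2* KO embryos. Over all genes tested, 1.16% were called lower. Cumulus and granulosa markers summed to 10.4 to 62.9 in WT against 32.0 to 72.6 in *SOX2* KO embryos, and oocyte markers to 60.3 to 143 and 61.6 to 97.7. The part of any of these in the *PAG* values was not tested. Within the genes with a mean of 50 or more, the 5 whose centred log2 values lay closest to those of *PAG2* over the 10 embryos were *PXDN*, *PTGES*, *PRKG1*, LOC101905194 and *ALDH1A3*, with a mean absolute difference of 0.395 to 0.422, against a median of 1.16 over the 6981 genes compared. *PTGES*, a prostaglandin E synthase, averaged 102 in WT against 491 in *SOX2* KO embryos. *PAG1* was 33rd in this order (0.530). Apart from *PAG2*, no gene of the *PAG* cluster had a mean of 50 or more, so none could be among the 5.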

How the data were processed

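Single early blastocysts, 5 WT and 5 *SOX2* KO, were profiled by Smart-seq2. The authors deposited a normalized signal, namely featureCounts read counts divided by the DESeq2 size factor of each embryo, after trimming with Trimmomatic and mapping with HISAT2 to ARS-UCD1.2. Annotation release, strand setting and the handling of multi-mapping reads are not given in the sources used here, so that paralogs and antisense genes may share reads. Reads were recovered from the step of each column, and all 201120 values were whole within 1e-06. Where nothing says that embryos came from separate fertilizations, p-values measure the spread between these embryos.

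The members and all gene lists were chosen with earlier results of these data known. Text names every numbered *PAG* gene, list members and the 5 genes closest to *PAG2*. limma (version 3.58.1, lmFit and eBayes with trend) was run on log2(normalized read count + 1) over 20056 genes with a mean of at least 1, with Benjamini-Hochberg adjustment over all of them, in R 4.3.3. Fold changes of low genes are understated on this scale. Sums, shares and detection carry no test. Alternatives were pseudocounts of 0.1 and 5, other filters, 3 other scalings, DESeq2 (version 1.42.0) and edgeR (version 4.0.16, quasi-likelihood) on recovered reads, covariates and leaving out each embryo. Sums without the embryos low in *XIST* or with the cluster genes that lack a *PAG* symbol, fold changes relative to the median, the background of low genes and thinned detection were added after seeing the data. The fits were tested on simulated data. Sums were computed in Python 3.11.15 with numpy 2.4.6 and pandas 2.3.3. Protein and promoter comparisons were not made, and 1 result is not reported here.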

Additional observations from a re-analysis of the deposited data

Results flagged for a closer look

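In 9 of 66 groups of 5 embryos, 1 embryo stood apart from the other 4 by Dixon's criterion, where chance gives about 1 in 20 groups, here 3.3. *SOX2* KO embryo 4 had 177 of *PAG1* against 71.3 to 96.9 in the others, and *SOX2* KO embryo 5 had 12.7 of *PAG3* against 0 to 3.34. The ancient sum of WT embryo 5 was 198 against 54.9 to 94.5. The remaining 6 cases are single WT embryos with reads of a gene that the other 4 lacked, where any read meets the criterion. They are WT embryo 5 for *PAG8* (5.90), *PAG12* (0.590) and *PAG19* (0.590), WT embryo 3 for *PAG5* (2.98) and *PAG21* (0.994), and WT embryo 1 for *PAG6* (1.53).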

How the results depend on the processing

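*PAG2* and *PAG1* kept their direction and call under every setting run. The number of ancient genes called was 1 to 2 with an embryo left out, 2 being without *SOX2* KO embryo 4. The other *PAG* genes called (7) fell to 0 with a pseudocount of 5, a mean of at least 5 (no gene left to test), quantile normalization and the *RN18S1* covariate, and ranged from 1 to 11 with an embryo left out. Calls over the whole table (2024) were 1185, 1015, 1115 and 220 under the same 4 settings and 930 to 3316 with an embryo left out. Higher genes made up 88.5% of the calls and 57.4% under quantile normalization (640 higher, 475 lower), where the median of all genes was -0.03. There the log2 ratio of the other *PAG* sum was 1.2 in place of 3.28 and the difference in ancient share 6.93 points in place of -6.28. Under quantile normalization and the *RN18S1* covariate *PAG3* turned to -0.50 and -0.30, *PAG5* to -0.17 and -0.20 and *PAG11* to -0.14 and -0.36; with an embryo left out *PAG3* ranged from -0.065, without *SOX2* KO embryo 5, to 0.88. *ETS2* was -0.11 with equal totals, -0.058 under quantile normalization, -0.036 by edgeR, -0.21 with the *RN18S1* covariate, -0.031 with the *XIST* covariate and -0.16 to 0.19 with an embryo left out. With a pseudocount of 5, *PAG9*, *PAG15*, *PAG16* and *PAG20* kept a limma adjusted p of 0.0273 to 0.0449. They missed the call on fold size, at log2 fold changes of 0.70 to 0.82. Beyond this and fewer genes or embryos tested, the cause was not tested. The log2 ratio of the ancient sum was 1.98, with 1.84 to 2.44 when an embryo was left out and 1.90 without the 2 embryos low in *XIST*, and that of the other *PAG* sum stayed at 3.28 with the cluster genes that lack a *PAG* symbol.

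No paired analysis was possible because *SOX2* KO columns carry numbers 1 to 5 and their labels 1, 2, 3, 5 and 6, so no *SOX2* KO embryo has a known replicate number. Comparison with cluster loci by their RefSeq description was not run. Genes at a few reads per embryo cannot show a moderate difference at this depth.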
